A study of Mus musculus with 4 samples.

Results

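The cytosolic ribosomal protein genes were examined in RNA-seq of mouse embryonic stem cells (ESCs) of the E14 line, pluripotent cells derived from the early embryo, in which Cnot1 had been knocked down. The genes were matched by symbol, with a rule chosen when earlier results of these data were known. It took every gene named Rpl or Rps followed by a number, p0 to p2 or a. A closing letter or the paralog ending l, al or l1 was allowed. The rule found 87 of the 50559 genes listed. Of these, 76 are canonical ribosomal proteins, 46 of the large and 30 of the small subunit, and 11 are paralogs of a canonical gene. Cells were transfected with a non-targeting siRNA (siNT) or with an siRNA against Cnot1 (siCnot1) at 150 nM and collected 48 h later, with 2 biological replicates in each group and 4 libraries in all. All cells were grown on gelatin with serum replacement and leukemia inhibitory factor, and poly(A)+ RNA was sequenced, so the counts reflect polyadenylated RNA. Which siRNA sequence against Cnot1 was used is not given in the labels. The protein CNOT1 holds together CCR4-NOT, the complex that shortens poly(A) tails of mRNAs.

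The ribosome joins a large and a small subunit, each built from ribosomal RNA and many proteins. The proteins are needed in fixed proportions, and their mRNAs are among the most abundant in a growing cell. Most of these mRNAs start with a C followed by a run of pyrimidines, the 5′ terminal oligopyrimidine (TOP) tract, through which mTOR and the LARP1 protein control their translation and stability together. A few genes have paralogs, many of them made in particular tissues, whose protein can take the place of the canonical one.

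Start sites are shown for members that bear on the comparisons below, as 10 bases before and 20 bases from the RefSeq start on GRCm38, read 5′ to 3′ on the gene's own strand. Capitals mark the unbroken pyrimidine run that begins with C at the start site. Rps18 was the canonical gene that fell most, Rps6 is the kinase target of the small subunit, Rpl15 had the longest run of the members, and Rpl28 had few reads. The last 4 are paralogs, of which Rpl10l and Rpl22l1 fell and Rpl7l1 and Rps27l did not pass the test.
Rps18 (chr17:33955646-33955675, minus strand): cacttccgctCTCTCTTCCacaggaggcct
Rps6 (chr4:86857348-86857377, minus strand): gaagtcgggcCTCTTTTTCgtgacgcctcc
Rpl15 (chr14:18270967-18270996, minus strand): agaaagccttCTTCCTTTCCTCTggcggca
Rpl28 (chr7:4792955-4792984, plus strand): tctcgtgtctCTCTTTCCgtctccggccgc
Rpl10l (chr12:66284382-66284411, minus strand): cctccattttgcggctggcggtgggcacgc
Rpl22l1 (chr3:28805498-28805527, plus strand): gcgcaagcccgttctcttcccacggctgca
Rpl7l1 (chr17:46782637-46782666, minus strand): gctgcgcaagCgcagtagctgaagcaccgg
Rps27l (chr9:66946076-66946105, plus strand): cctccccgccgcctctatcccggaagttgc
In these windows the pyrimidine run was 9 bases long in Rps18 and Rps6, 13 in Rpl15 and 8 in Rpl28. Rpl7l1 had a single C and the other 3 paralogs had no C at the annotated start. Of their canonical partners, Rpl10 and Rpl22 had no C at an annotated start either, and Rps27 had a run of 7 bases. Of the 87 members, 64 had a start in the RefSeq table. A C with at least 4 further pyrimidines stood at an annotated start in 13 of the 56 canonical genes found there (23.2%), in 1 of 8 paralogs (Rpl32l) and in 399 of the 12821 tested genes with a start (3.11%). Annotated starts can lie away from the true first base, so a gene without a run at this position is not shown to lack a TOP tract.

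Counts on genes totalled 32135824 to 32557440 per library. Cnot1 (GRCm39 chr8:96445559-96534741, minus strand) stood at 913 and 986 normalized CPM (counts per library size scaled by edgeR's TMM factors) in siNT and at 185 and 192 in siCnot1, a log2 fold change of -2.33. The ESC markers were present throughout, with 8 of 8 tested, a summed level of 6252 to 6574 CPM in siNT and 5641 to 5832 CPM in siCnot1. Of these 8, 6 fell, with a median log2 fold change of -0.20. The 7 fibroblast markers, 2 of them at 0 in every library, summed to 8.60 and 11.7 CPM in siNT and 13.9 and 13.2 CPM in siCnot1, and 1 of the 3 that were tested rose (Col1a1, from 1.25 and 1.53 to 3.46 and 3.91 normalized CPM). The 6 endoderm markers summed to 10.9 and 8.60 CPM against 15.5 and 14.6 CPM, and 1 of 6 rose (Pdgfra, log2 fold change 1.02). The 6 markers of 2-cell-like cells rose in summed level from 43.6 and 47.5 CPM to 135 and 141 CPM, and 5 of them passed the test. In RNA from whole cultures, fewer cells of a type and less RNA per cell cannot be told apart. The part of these marker changes in the values below was not tested.

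Ribosomal protein mRNAs were lower in siCnot1 than in siNT across both subunits, with log2 fold changes from -0.59 to -0.22 in the 76 canonical genes. All levels are relative to the other polyadenylated RNA counted in a library. Amounts per cell were not measured, and the part of poly(A) selection in the decrease was not tested. All 87 members had enough reads to be tested, and 78 of them fell at an adjusted p under 0.05 while 0 rose, also at an unadjusted p under 0.05 (quasi-likelihood test of edgeR, adjusted by Benjamini-Hochberg over 18144 genes). Among all tested genes 14.7% fell and 15.0% rose by the same rule. The median log2 fold change of the members was -0.37, or 77.6% of the siNT level, with the quartiles at -0.43 and -0.29, against a median of 0.0084 over all tested genes. In normalized CPM, both siCnot1 libraries lay below both siNT libraries for 82 of the 87 members, compared with 31.2% of all tested genes. The decreases were small: 0 of the 87 members met the threshold of the study, an unadjusted p of at most 0.05 and a log2 fold change of at most -1, which 1.80% of all tested genes met on the lower side.

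**Figure D1:**
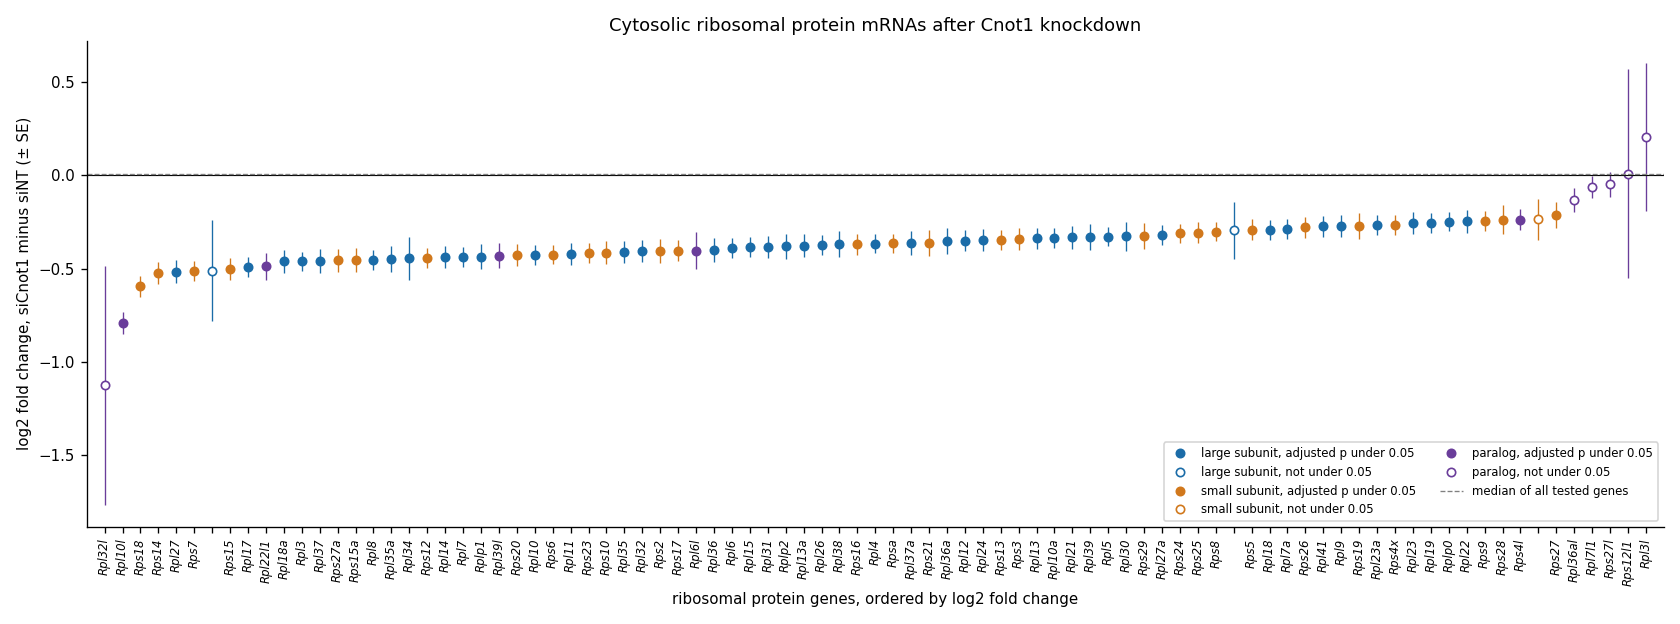
Log2 fold change (siCnot1 minus siNT) with its standard error for each of the 87 ribosomal protein genes in order, coloured by class and filled where the adjusted p was under 0.05, with names for the paralogs and for the canonical genes under it. The 76 canonical genes lie between -0.59 and -0.22, while the 11 paralogs reach from -1.13 (Rpl32l) to 0.21 (Rpl3l), both with few reads.

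The count rested in part on 1 library. Without siNT replicate 1, 41 members fell at an adjusted p under 0.05, with 85 of 87 still below 0 and a median of -0.32, and 4.49% of all tested genes fell. Without siCnot1 replicate 1, 62 fell with a median of -0.33, and 6.50% of all tested genes fell. Replicates of a group also differed in a shared way. In normalized CPM, siNT replicate 1 exceeded siNT replicate 2 in 78 of the 87 members, by a median of 0.097 on the log2 scale, and siCnot1 replicate 1 exceeded siCnot1 replicate 2 in 8 of them. The closest pair of libraries from different groups, siNT replicate 2 and siCnot1 replicate 2, still differed by a median of 0.26. Because the members shift together within a library, they are not independent of each other. The p-values rest on 2 libraries per group, with a variance estimate that edgeR shares in part across the tested genes.

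The share of each library taken by the members was also lower in siCnot1, with no scaling other than the library total. Members held 5.74% and 5.37% of counts on genes in siNT and 4.53% and 4.74% in siCnot1. The groups did not overlap, with means of 5.55% ± 0.261 and 4.63% ± 0.144 (SD, n = 2 each) and a two-sided exact permutation p of 0.333, the smallest that 2 libraries against 2 can give. Leaving out the mitochondrial chromosome, which held 1.29% ± 0.161 of counts in siNT and 1.94% ± 0.247 in siCnot1 (SD, n = 2 each), gave 5.81% and 5.44% against 4.63% and 4.82%. When libraries were scaled by their totals in place of TMM, the median log2 fold change of all tested genes moved to 0.12 and that of the members to -0.26, since another scaling shifts all genes alike. Under that scaling 73 members fell, and 71.9% of the called genes of the whole table were higher, compared with 50.5% with TMM.

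**Figure D2:**
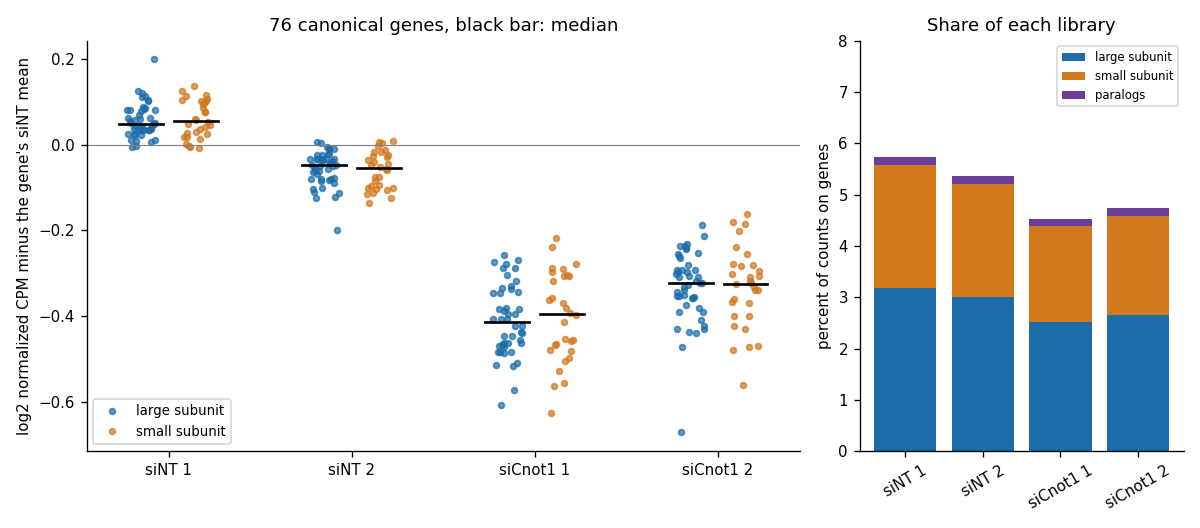
Left, log2 normalized CPM of each of the 76 canonical genes in each library relative to that gene's siNT mean, with a black bar at the median of each subunit; right, the percent of counts on genes held by large subunit genes, small subunit genes and paralogs. The medians lie at 0.048 and 0.055 in siNT replicate 1 and at -0.41 and -0.40 in siCnot1 replicate 1 for the large and small subunit.

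Genes of both subunits were lower. Of the 46 large subunit genes, 44 fell and all 46 were below 0 without overlap of the groups. Their median log2 fold change was -0.37 and single genes ran from -0.52 to -0.25. Of the 30 small subunit genes, 29 fell and all 30 were below 0 without overlap, around a median of -0.36 with single genes from -0.59 to -0.22. Among all tested genes 14.7% fell and 31.2% lay lower without overlap. For the 657 tested genes above 8 in mean log2 CPM that are not members, these shares were 57.4% and 72.6%. The standard deviation of the log2 fold change over genes was 0.073 in the large and 0.096 in the small subunit. The ratio of counts on large subunit genes to counts on small subunit genes came to 1.34 and 1.36 in the siNT libraries and 1.36 and 1.37 in the siCnot1 libraries. These values overlapped between the groups, with a difference in means of 0.011 (exact permutation p = 0.667). Rpl28 and Rpl29, which did not pass the test, had few reads in these libraries.

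Among the canonical genes, Rps18 was at the lower end. Rps18, a protein of the head of the small subunit (GRCm39 chr17:34170972-34174639), stood at 788 and 729 normalized CPM in siNT and at 491 and 514 in siCnot1. Both siCnot1 libraries were well below both siNT libraries, with a log2 fold change of -0.59 (SE 0.056, adjusted p = 3.84e-08 by edgeR's quasi-likelihood test and Benjamini-Hochberg, as for all adjusted p-values below). Rps14, a protein of the small subunit platform, stood at 1149 and 1021 in siNT and 733 and 777 in siCnot1, a log2 fold change of -0.52. Rpl27, of the large subunit, stood at 382 and 370 against 247 and 279 (-0.52). Rps7, of the small subunit and a known binder of MDM2, stood at 679 and 677 against 461 and 490 (-0.51). For these 4 genes the gap between the groups was larger than the gap between replicates. Rpl28 had a similar log2 fold change of -0.51 but only 3.83 and 2.90 normalized CPM in siNT and 2.63 and 2.09 in siCnot1, with an SE of 0.27 and an adjusted p of 0.163.

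At the other end, the canonical genes with the smallest decreases were still below 0. Rps28, of the small subunit, stood at 143 and 118 normalized CPM in siNT, against 105 and 116 in siCnot1, where siNT replicate 2 and siCnot1 replicate 2 nearly met (log2 fold change -0.24, adjusted p = 0.0197). Rps9, of the small subunit, stood at 910 and 845 against 718 and 763 (-0.25), and Rpl19, of the large subunit, at 833 and 792 against 669 and 692 (-0.26). The libraries of the groups were further apart for these last genes than for Rps28. Rps27, whose paralog is described below, had the smallest decrease of the canonical genes at -0.22 (adjusted p = 0.0213). These calls were lost under several alternatives. The adjusted p from edgeR without siNT replicate 1 was 0.47 for Rps28, 0.112 for Rps9, 0.0674 for Rpl19 and 0.316 for Rps27. Without siCnot1 replicate 1 it was 0.334 for Rps28, 0.0854 for Rps9 and 0.227 for Rps27, and without siCnot1 replicate 2 it was 0.0906 for Rps28 and 0.129 for Rps27. With all libraries it was 0.196 and 0.25 for these 2 genes with library totals in place of TMM, and 0.231 and 0.164 without a filter on low counts.

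The members most abundant per length were lower as well. Rps2, of the small subunit, had the highest level per kb of listed exon length, 2560 normalized CPM per kb in siNT and 1932 in siCnot1. Its 4 libraries stood at 2746 and 2368 normalized CPM in siNT and 1844 and 2016 in siCnot1. The siNT replicates differed from each other by about as much as siNT replicate 2 from siCnot1 replicate 2, and the log2 fold change was -0.41 (SE 0.062, adjusted p = 2.68e-05). Rps14, Rpl13, Rps26 and Rplp1 followed at 1817, 1773, 1771 and 1771 normalized CPM per kb in siNT, with log2 fold changes of -0.52, -0.34, -0.28 and -0.44. The last 3 of these levels differed by less than the spread between replicates. Without siNT replicate 1 the adjusted p from edgeR was 0.0626 for Rps2, 0.0528 for Rps26 and 0.0709 for Rplp1.

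The mRNAs for the proteins of the stalk, which recruits the elongation factors to the large subunit, all fell. Rplp0, the base of the stalk, stood at 1063 and 1055 normalized CPM in siNT and 885 and 896 in siCnot1, a log2 fold change of -0.25 (SE 0.052, adjusted p = 0.00068). Its replicates lay close together in both groups. Rplp1 stood at 892 and 765 against 578 and 647 (-0.44, SE 0.066), and Rplp2, its partner in the stalk dimer, at 376 and 325 against 257 and 282 (-0.38, SE 0.066). Both dimer genes fell, and in both siNT replicate 1 was the highest library. Without it the adjusted p from edgeR was 0.0709 for Rplp1 and 0.084 for Rplp2. The differences among the 3 stalk genes were not tested.

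Rpl5 and Rpl11 join 5S ribosomal RNA in a particle that can also bind MDM2 and so stabilize p53. Rpl5 stood at 1286 and 1226 normalized CPM in siNT and 996 and 1004 in siCnot1 (log2 fold change -0.33, adjusted p = 4.1e-05), and Rpl11 at 600 and 551 against 416 and 444 (-0.42, adjusted p = 6.34e-06). Both fell with no overlap of the groups. Rps6, the small subunit protein phosphorylated by S6 kinase, stood at 1456 and 1422 against 1051 and 1091 (-0.43, adjusted p = 1.47e-06). Rps27a, made as a fusion with ubiquitin, stood at 690 and 600 against 460 and 480 (-0.46, adjusted p = 5.18e-06). In both genes each siCnot1 library was lower than each siNT library by more than the replicates differed. Rps19, mutated in Diamond-Blackfan anaemia, stood at 500 and 427 against 360 and 407, where siNT replicate 2 and siCnot1 replicate 2 were close (-0.27, adjusted p = 0.00383). Rpl13a, also known for a role in translational control outside the ribosome, stood at 990 and 914 against 690 and 776 (-0.38, adjusted p = 4.11e-05). Without siNT replicate 1 the adjusted p from edgeR was 0.29 for Rps19 and 0.0745 for Rpl13a, and without siCnot1 replicate 1 it was 0.205 for Rps19. With all libraries, Rps19 had an adjusted p of 0.153 with DESeq2, and with edgeR 0.0604 with library totals and 0.139 without a filter.

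The paralogs did not follow the narrow pattern of the canonical genes. Of the 11 paralogs, 5 fell (Rpl10l, Rpl22l1, Rpl39l, Rpl6l and Rps4l), 0 rose and 6 did not pass the test, with a median log2 fold change of -0.24. The 11 canonical partners all fell, with a median of -0.39. These are 45.5% of the paralogs and 100% of the partners, against 14.7% of all tested genes. The rule matched 3 paralogs, Rpl6l, Rpl32l and Rps12l1, that were taken up after the table had been opened. Rpl32l, Rps12l1 and Rpl3l had under 2 normalized CPM in every library, too few reads for a decrease of the size seen in the partners to be detectable.

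Rpl10l, a copy of Rpl10 without introns that is known for its role in male germ cells (GRCm39 chr12:66330153-66331175), showed the largest decrease among the members that passed the test. It stood at 227 and 216 normalized CPM in siNT and at 129 and 126 in siCnot1, a log2 fold change of -0.79 (SE 0.059, adjusted p = 1.33e-09). The groups were far apart compared with their replicates. Its partner Rpl10, on chromosome X, stood at 815 and 819 against 593 and 623 (-0.43). Within each library Rpl10l made up 21.8% and 20.9% of the pair's counts in siNT and 17.9% and 16.9% in siCnot1, a difference in the log2 ratio of -0.37. Rpl22l1, which can replace Rpl22 in the large subunit, stood at 144 and 126 against 90.2 and 102 (-0.49, adjusted p = 1.89e-05). Rpl22 stood at 434 and 389 against 333 and 361 (-0.25), and the log2 ratio of Rpl22l1 to Rpl22 went from -1.59 and -1.63 to -1.88 and -1.82. Without siNT replicate 1 the adjusted p from edgeR was 0.065 for Rpl22l1 and 0.184 for Rpl22, and without siCnot1 replicate 1 it was 0.146 for Rpl22. With all libraries, that of Rpl22 was 0.0726 with library totals and 0.0848 without a filter.

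Rpl7l1, Rps27l and Rpl36al, all with more reads on average than Rpl39l or Rpl22l1, had log2 fold changes nearer to 0 than their partners. Rpl7l1, a relative of Rpl7 that acts in assembly of the large subunit, stood at 358 and 335 normalized CPM in siNT, against 320 and 343 in siCnot1, and the groups overlapped (log2 fold change -0.06, adjusted p = 0.457). Rpl7 stood at 1395 and 1330 against 974 and 1039 (-0.44), and Rpl7l1 went from 20.4% and 20.1% of the pair's counts to 24.8% and 24.8%. Rps27l, a target of p53, stood at 167 and 144 against 148 and 153 (-0.05, adjusted p = 0.637), and went from 57.8% and 57.8% of its pair with Rps27 to 60.6% and 60.6%. With library totals in place of TMM the log2 fold changes were 0.044 for Rpl7l1 and 0.058 for Rps27l, and without siNT replicate 1 that of Rps27l was 0.054. Both siCnot1 shares were above both siNT shares in these pairs, and the gap was larger than that between replicates. Rpl36al stood at 187 and 170 against 154 and 172 (-0.13, adjusted p = 0.137), and went from 40.8% and 42.6% of its pair with Rpl36a to 45.6% and 45.3%. Rpl36a stood at 271 and 229 against 184 and 207 (-0.35), with an adjusted p from edgeR of 0.157 without siNT replicate 1, 0.0896 without siCnot1 replicate 1 and 0.0802 without a filter, and one of 0.0576 with DESeq2.

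Rpl39l and Rps4l fell, as did their partners. Rpl39l, known from testis, stood at 108 and 109 normalized CPM in siNT and 77.3 and 84.0 in siCnot1 (log2 fold change -0.43, adjusted p = 2.73e-05), and Rpl39 at 161 and 137 against 117 and 120 (-0.33). The ratio of Rpl39l to Rpl39 overlapped between the groups. Rps4l stood at 547 and 511 against 438 and 458 (-0.24, adjusted p = 0.00215), close to -0.27 for Rps4x. Rpl6l had a log2 fold change of -0.40 (adjusted p = 0.00358) against -0.39 for Rpl6, again with overlapping ratios. The calls of Rpl39, Rps4l and Rps4x were lost without siNT replicate 1 (adjusted p from edgeR 0.0915, 0.102 and 0.0582), those of Rpl39 and Rps4l also without siCnot1 replicate 1 (0.0582 and 0.0835), that of Rps4l with library totals (0.0628), that of Rpl39 without a filter (0.0604), and that of Rpl6l without any 1 of the libraries (0.0514 to 0.0881). Over the 11 pairs the ratio to the partner was lower without overlap in Rpl10l, Rpl22l1 and Rpl32l, and higher without overlap in Rpl36al, Rpl3l, Rpl7l1, Rps27l and Rps4l. Each of these 8 had the smallest two-sided exact permutation p the design allows, 0.333 (0.458 after Benjamini-Hochberg adjustment over the 11 pairs), so none of the differences in ratio could pass a threshold of 0.05. The difference in log2 ratio was only 0.028 for Rps4l. For comparison, the normalized CPM of single genes separated without overlap in 5657 (lower) and 5936 (higher) of the 18144 tested genes. Of the 11 paralogs, 5 have no intron in the table (Rpl10l, Rpl6l, Rps4l, Rpl32l and Rps12l1), and reads that fit both copies can be divided differently from their origin, which makes their values uncertain.

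**Figure D3:**
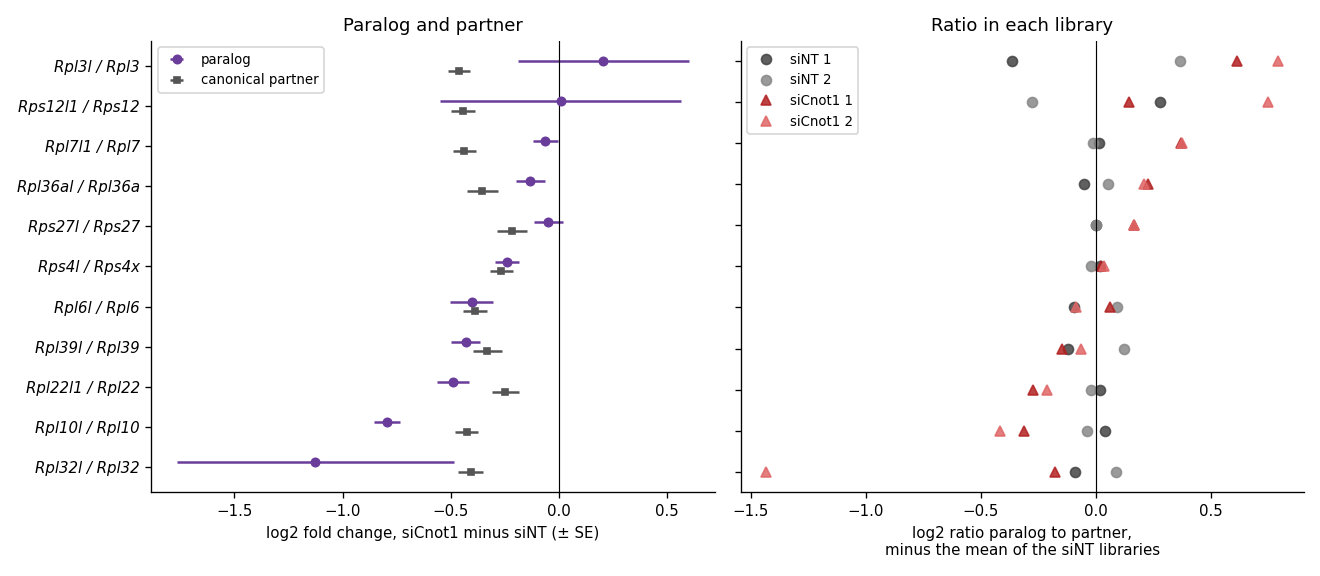
Left, log2 fold change with its standard error for each paralog (circles) and its canonical partner (squares); right, the log2 ratio of paralog to partner counts in each library relative to the mean of the siNT libraries. The ratio difference between the groups runs from -0.81 for Rpl32l to 0.70 for Rpl3l, both with few reads, and is -0.37 for Rpl10l and 0.37 for Rpl7l1.

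Processed copies of the ribosomal protein genes are numerous in the mouse genome, and reads of a member can be counted on them. The table lists 321 rows named as Rpl or Rps pseudogenes, which together held 0.401% and 0.376% of counts in siNT and 0.303% and 0.313% in siCnot1. Of these, 113 were tested, and 34 fell (30.1%, against 14.7% of all tested genes) and 0 rose. With edgeR, 1 rose at an unadjusted p under 0.05, and the pseudogenes had a median of -0.41. Leaving out siNT replicate 1, siNT replicate 2 or siCnot1 replicate 1 left 10, 21 or 17 of them lower. For 61 of the 64 members with a named pseudogene, the member fell when the counts of both were summed. In 3 members the pseudogene rows held more counts than the gene itself: 93.9% of the summed counts for Rpl34, 93.1% for Rpl28 and 50.2% for Rpl3. Summed with its pseudogenes, Rpl28 had a log2 fold change of -0.29 and an adjusted p of 0.019. Rpl3-ps1 stood at 1148 and 1036 normalized CPM in siNT and 736 and 781 in siCnot1 (-0.53), next to 1070 and 1060 against 761 and 786 for Rpl3 itself (-0.46). Rps7-ps3 stood at 480 and 497 against 346 and 350 (-0.49), close to Rps7. These pairs share most of their sequence, and their counts cannot be taken as separate transcripts. Also, 35 members overlap another gene in the table, and the strand setting of the counting is not given in the sources used here.

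The mRNAs of ribosomal proteins whose symbols the rule misses were lower too. Of 5 such genes, 4 fell (80%, against 14.7% of all tested genes), with a median log2 fold change of -0.33. For the 657 tested genes above 8 in mean log2 CPM that are not members, 57.4% fell, with a median of -0.18. Fau, a ubiquitin-like fusion that gives the small subunit protein eS30, stood at 293 and 275 normalized CPM in siNT and 195 and 214 in siCnot1 (-0.47, adjusted p = 2.55e-06). The small subunit scaffold Rack1 had a log2 fold change of -0.38 and Rps3a1 of -0.33. Rps27rt, a copy of Rps27 with 8.00 to 11.6 normalized CPM, had -0.33 and an adjusted p of 0.106. Without siNT replicate 1, 2 of the 5 fell, and the adjusted p from edgeR was 0.0544 for Rps3a1.

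Most other genes known as TOP mRNAs were also lower. Of 15 such genes, translation factors and others, 13 fell (86.7%) and 0 rose, with a median of -0.29. Among all tested genes 14.7% fell. Among the 657 tested genes above 8 in mean log2 CPM that are not members, 57.4% fell, with a median of -0.18. The part of level in the decrease of the TOP mRNAs was not tested. Eef1a1, the elongation factor that brings aminoacyl-tRNA to the ribosome, stood at 13626 and 13661 normalized CPM in siNT and 8775 and 9050 in siCnot1, a log2 fold change of -0.61 (adjusted p = 3.07e-09). The decrease was larger than that of any canonical ribosomal protein gene, a comparison that was not tested. Eif4b, an initiation factor that assists the helicase eIF4A, stood at 1037 and 982 against 713 and 723 (-0.49). The 2 that did not pass were Pabpc1, the poly(A)-binding protein (-0.08, adjusted p = 0.30), and Eif3f (-0.14, adjusted p = 0.0549). These 2 genes, Rpl29 and Rpl34 above, and the genes named beyond the leading pair of each list below, were picked after their values were seen.

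Lists of genes that control or assemble the ribosome held both genes that fell and genes that did not pass the test. Of 13 genes of the mTOR pathway and LARP proteins, 3 fell and 1 rose (23.1% and 7.69%, against 14.7% and 15.0% of all tested genes). Their median was -0.09 and turned to 0.019 with library totals in place of TMM. Mtor, the kinase itself, stood at 138 and 130 normalized CPM in siNT and 104 and 117 in siCnot1 (-0.28, adjusted p = 0.00227), and Tsc1, which restrains mTOR, rose from 42.8 and 46.0 to 60.1 and 56.3 (0.39, adjusted p = 0.000921). Larp1, the TOP-binding protein, and Eif4ebp2 fell with log2 fold changes of -0.19 and -0.20. Leaving out any 1 library left 0 or 1 of the 13 lower. The adjusted p from edgeR was then 0.0659 to 0.149 for Mtor without siNT replicate 1, siNT replicate 2 or siCnot1 replicate 1 (0.0662 with all libraries and no filter), and 0.0767 and 0.0636 for Tsc1 without siNT replicate 1 and siCnot1 replicate 1. Of 18 nucleolar genes for ribosomal RNA synthesis and processing, 10 fell (55.6%) and 0 rose, with a median of -0.21. Among the tested genes above 8 in mean log2 CPM that are not members, 57.4% fell, with a median of -0.18. Fbl, the methyltransferase of box C/D snoRNPs, had -0.43 (adjusted p = 2.6e-05) and Pes1, of the PeBoW assembly complex, -0.34 (adjusted p = 8.24e-05). Without siNT replicate 1, 2 of the 18 fell, and the adjusted p was 0.0729 for Fbl and 0.0526 for Pes1.

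Of 10 chaperones of single ribosomal proteins and genes of the 5S particle, 4 fell and 1 rose. These are 40% and 10%, against 14.7% and 15.0% of all tested genes. Their median was -0.09 and turned to 0.012 with library totals. Ltv1, needed for assembly of the head of the small subunit, stood at 110 and 117 normalized CPM in siNT and 82.0 and 86.1 in siCnot1 (-0.43, adjusted p = 2e-05). Heatr3, Rpf2 and Pdcd2 fell with -0.34, -0.30 and -0.29, and 2 of the 10 fell without siNT replicate 1, siNT replicate 2 or siCnot1 replicate 2. Mdm2, the p53 ligase that the 5S particle binds, rose from 182 and 194 to 290 and 259 (0.55, adjusted p = 6.27e-07). The mRNAs of mitochondrial ribosomal proteins, whose ribosome is separate, did not move together. Of 78 tested, 16 fell and 2 rose (20.5% and 2.56%, against 14.7% and 15.0% of all tested genes). Their median was -0.07 and turned to 0.035 with library totals. Leaving out any 1 library left 2 to 4 of them lower. Mrpl3 rose from 46.1 and 39.9 to 76.6 and 76.1 normalized CPM (0.83, adjusted p = 7.75e-08), while Mrpl24 fell from 98.9 and 93.5 to 68.7 and 70.7 (-0.47, adjusted p = 1.47e-05).

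**Figure D4:**
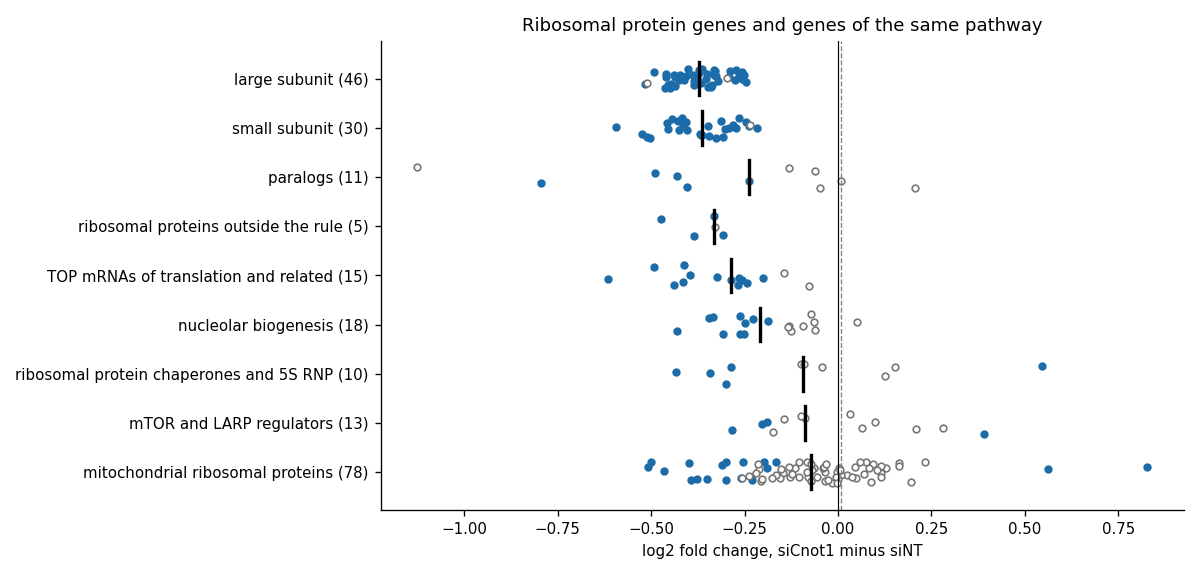
Log2 fold change (siCnot1 minus siNT) of each gene in 9 groups, with a black bar at the median, filled points for an adjusted p under 0.05 and a dashed line at the median of all tested genes. The medians run from -0.37 for large subunit genes over -0.29 for TOP mRNAs to -0.07 for mitochondrial ribosomal proteins, which is 0.035 with library totals in place of TMM.

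Members are short and abundant, and both properties went with lower values in the table as a whole. Of the 87 members, 55 lay in the shortest 10% of the tested genes by listed exon length, whose median log2 fold change was -0.14, compared with 0.11 in the longest 10%. By level, 73 lay in the highest 10%, with a median of -0.14 against 0.22 in the lowest 10%. Among 657 other abundant genes, those above 8 in mean log2 CPM, 80.1% were below 0, 377 fell and the median was -0.18. The members' median of -0.37 lay below each of these values. Among the 76 canonical genes, Spearman's rho of the log2 fold change with exon length was 0.012, with CPM per kb -0.098 and with CPM -0.032, a description over genes that share the same 4 libraries. The part of length and level in the decrease of the members was not tested.

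**Figure D5:**
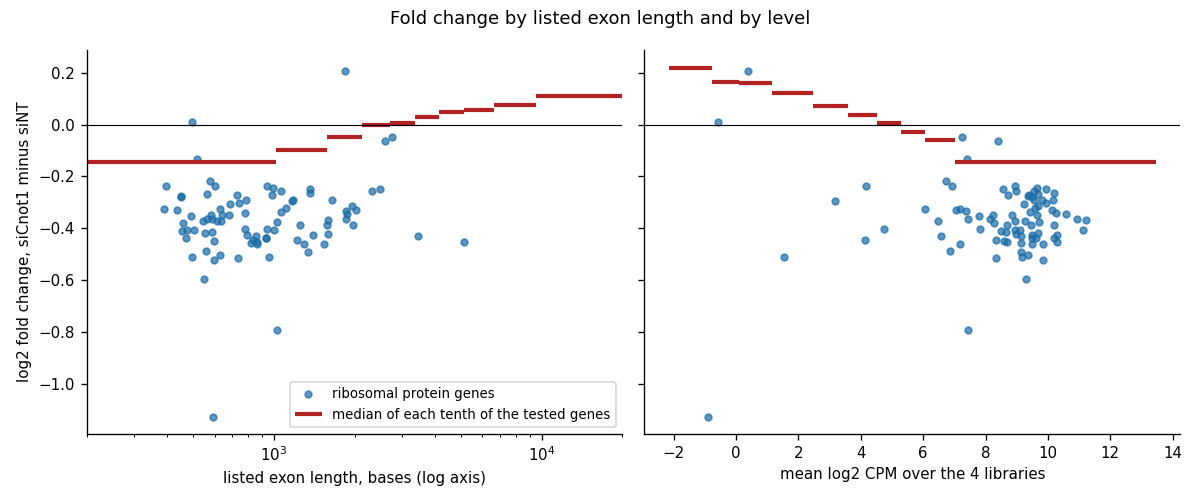
Log2 fold change of the 87 members (points) against listed exon length on a log axis and against mean log2 CPM, with red bars at the medians of the tested genes in 10 bins of equal size. The bars rise from -0.14 to 0.11 with length and fall from 0.22 to -0.14 with level, and most members lie below the bar of their bin.

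Sequence features at the start and intronic snoRNAs were set beside the log2 fold changes of the canonical genes, without a test. Canonical genes with a pyrimidine run at the annotated start had a median log2 fold change of -0.42 (13 genes), compared with -0.35 for the 43 without one. Annotated starts can lie away from the true first base, so this split does not sort genes by whether they have a TOP tract. The hexamer CGGAAG, the core of ETS factor sites, searched on both strands of the 300 bases around the start, was found in 39 of 56 canonical genes (69.6%), in 3 of 8 paralogs and in 31.3% of the tested genes. Canonical genes with and without it had medians of -0.37 and -0.33. GGGCGG, the core of Sp1 sites, on both strands, was found in 60.7% of the canonical genes and 63.2% of the tested genes, TATAAA on the gene's own strand in 8.93% and 5.77%, and AAGATGG on both strands in 16.1% and 7.93%. CTCTTT on the gene's own strand, which can overlap a pyrimidine run at the start, was found in 41.1% and 12.5%. A match is only a description of these letters. Many members carry snoRNA genes in their introns. The 23 canonical genes with a listed snoRNA inside had a median of -0.37 and 22 of them fell (95.7%). The 53 without one also had a median of -0.37 and 51 fell (96.2%), against 14.7% of all tested genes.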

How the data were processed

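RNA-seq libraries of siNT and siCnot1 ESCs were made from poly(A)+ RNA with a dUTP protocol. The authors deposited raw read counts per gene, neither normalized nor pooled. The submitters' processing notes name fastp 0.19.4, HISAT2 2.2.1 and DESeq2 1.40.2 with mm10, without saying which step each belongs to. The listed positions are those of GRCm39: of the 87 members, 1 had the same start in RefSeq on GRCm38 and 85 had a span of the same length within 10%. The counting program is not given in the sources used here. Samples were grouped by their titles.

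Counts were tested with edgeR 4.0.16 in R 4.3.3 (TMM, filterByExpr with a minimum count of 10, quasi-likelihood test, Benjamini-Hochberg adjustment), siCnot1 against siNT with no covariate. Of 50559 genes, 18144 were tested, and the biological coefficient of variation was 0.0721. TMM gave factors of 0.963 to 0.964 for siNT and 1.03 to 1.04 for siCnot1. Ratios of paralog to partner used counts plus 0.5. The scripts were tested on simulated data. Low counts limit precision mainly for the members with few reads, since 7 of 87 had under 30 normalized CPM in siNT. Among these are Rpl28 and Rpl34, for which named pseudogenes held 93.1% and 93.9% of the summed counts.

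The members and lists were chosen with earlier results of these data known. Genes were named by a rule: Cnot1, paralogs with their partners, the 6 lowest and 6 highest other members, the 5 most abundant per kb, stalk, 5S and other well-known members, ribosomal proteins outside the symbol rule and the 2 genes with the smallest p of each list. No other columns of per-sample values were present. Alternatives were other scalings, other filters, DESeq2 1.42.0, limma-voom (limma 3.58.1), sums with pseudogenes, a replicate block and leaving out each library, where a lone library is assumed to vary like the other group. RefSeq starts were matched by symbol. The motifs and the ratio of large to small subunit counts were added after the data had been seen. A few genes that the rule names are not reported here.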

Additional observations from a re-analysis of the deposited data

How the results depend on the processing

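With other scalings, filters and tools, or pseudogene counts added, 67 to 79 of the 87 members fell and 0 rose. Leaving out 1 library gave 41 to 76, lowest without siNT replicate 1. Counts over all tested genes depended more on the settings: 1563 fell with library totals and 1450 without a filter on low counts, where more genes were tested, compared with 2668, and 1303 rose without a filter, compared with 2719. Leaving out 1 library, which leaves 3, gave 871 to 1463 lower and 743 to 1439 higher. With library totals the medians were -0.26 for the members, -0.26 for the large and -0.26 for the small subunit. The small subunit median ranged from -0.43 without siNT replicate 2 to -0.32 without siNT replicate 1.

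Of the mTOR and LARP list, 1 gene fell with library totals, 1 without a filter and 0 to 1 without a library. Of the mitochondrial ribosomal proteins, 4, 4 and 2 to 4 fell in the same settings. Without a library, 2 to 4 of the ribosomal proteins outside the rule, 2 to 3 chaperones, 2 to 7 nucleolar genes and 10 to 26 named pseudogenes fell. With library totals the medians of the mTOR, chaperone and mitochondrial lists turned to 0.019, 0.012 and 0.035, and the log2 fold changes of Rpl7l1 and Rps27l to 0.044 and 0.058. Without 1 library, the log2 ratio difference of Rpl39l to Rpl39 ranged from -0.23 to 0.017 (positive without siNT replicate 2) and that of Rpl6l to Rpl6 from -0.11 to 0.081 (positive without siNT replicate 2 and, at 0.060, siCnot1 replicate 2). Log2 fold changes ranged from -0.12 (without siNT replicate 1) to 0.61 for Rpl3l, from -0.15 to 0.054 (without siNT replicate 1) for Rps27l and from -0.35 (without siCnot1 replicate 2, and -0.27 without siNT replicate 2) to 0.35 for Rps12l1. The cause was not tested where no construction of the setting shows it. Over the single genes named, 693 values kept direction and call, 53 lost the call and 6 turned.

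Same-numbered replicates did not deviate together over all tested genes (correlation 0.017 over 18144 genes). The labels do not say whether same-numbered samples were prepared together, and this correlation cannot settle it. With the replicate block 78 members fell with a median of -0.37 and no call of a named gene changed. Few reads limit the precision for some members, Rpl3l, Rpl32l, Rps12l1 and Rpl28 among them. For Rpl28 the named pseudogenes held 93.1% of the summed counts, so its few reads do not show a low level.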
